A study of Mus musculus with 27 samples.

Results

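A set of 8 sorted-cell RNA libraries with the profile of adventitial fibroblasts, out of 27 in a study of 12-week-old mice, was compared by its amount of pancreatic acinar RNA. The 8 were chosen by measured levels, as those with less than 100 CPM (read counts scaled to a common total of reads in genes) of each of Ptprc, Ccl21a and Msln, which mark leukocytes, lymphoid stroma and mesothelium. Of these, 4 had more than 600 CPM of Cpa1, the acinar cell's carboxypeptidase A1, and are called acinar RNA-high, or high for short. The other 4 had 600 CPM or less and are called acinar RNA-low, or low. Because measured values made this split, every difference between the sides is given as a description, and no p-value from it is used as evidence. The remaining 19 libraries were 8 rich in Ptprc, 7 rich in Ccl21a and 4 rich in Msln.

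All mice had the NOD background, a strain that develops autoimmune diabetes. TG+ mice carried Ins2-CCL21, in which an insulin promoter drives the chemokine CCL21, and TG- mice were NOD/ShiLtJ. Cells were dissociated from pancreatic islets or skin-draining lymph nodes, stained with antibodies and sorted. The acinar RNA-high libraries were islet CD45 TG+ replicates 2 and 4, islet gp38-high TG+ replicate 1 and islet gp38-low TG+ replicate 2. The acinar RNA-low libraries were islet gp38-high TG+ replicate 2, islet gp38-low TG+ replicate 4, islet gp38-low TG- replicate 2 and lymph node FRC TG- replicate 1, where FRC stands for fibroblastic reticular cell. All 4 acinar RNA-high libraries were therefore TG+, against 2 TG+ and 2 TG- on the other side. Whether replicates came from different animals is not in the labels.

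Some labels went against the RNA. The 2 acinar RNA-high libraries labelled CD45 held 1.15 and 0.380 CPM of Ptprc, the gene for CD45, against a median of 510 CPM in the 8 Ptprc-rich libraries. The library labelled lymph node FRC held no read of Ccl21a, the chemokine of lymph node reticular cells, but held 44.9 CPM of Cpa1. These 3 libraries are named below as labelled. Such mismatches ran through the series: 7 of 8 libraries labelled CD45 were not Ptprc-rich, 5 of 7 labelled lymph node FRC were Ptprc-rich and none Ccl21a-rich, and 2 of 12 labelled gp38-high or gp38-low were Ptprc-rich. Sort and genotype labels, and each result below that rests on them, carry that doubt. Results without the 3, or within the labels that fell on both sides, are given beside the results they touch.

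The fibroblast name was checked against its markers. Pi16, a marker of adventitial fibroblasts around vessels and ducts, stood at 689 to 2318 CPM in the 8 libraries, against at most 137 CPM in any other library. Col1a1, Pdgfra and Dpp4 were present in all 8, and Cd248 stood at 893 to 3052 CPM. Pecam1 of endothelium reached at most 2.07 CPM, C1qa of macrophages 0.670 CPM and Cd3e of T cells 2.12 CPM. A longer list of endothelial genes, described below, summed to 563 to 688 CPM in the 8.

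Acinar cells make and store digestive enzymes, chiefly proteases made as inactive precursors, lipases, amylases and ribonucleases. Because this RNA is so abundant, lysed acinar cells can release it into a pancreatic cell suspension. Ducts carry the juice to the gut through keratin-rich epithelium, islets secrete hormones, and adventitial fibroblasts build the collagen sheath around vessels and ducts. In bulk RNA, fewer cells of a type and less RNA per cell cannot be told apart.

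Many acinar genes are known targets of the transcription factor complex PTF1, which binds an E-box (CANNTG) and a nearby TTTCCC box. The windows of Cpa1 and Ctrb1, the chymotrypsinogen gene, are shown because they are the gene that made the split and the acinar gene with the highest level. Both run from 250 bases before to 50 bases after the RefSeq start on GRCm38.p6. Capitals mark an E-box and a TTTCCC box at most 20 bases apart without overlap, on either strand. The Cpa1 window is chr6:30638968-30639267 on the plus strand and the Ctrb1 window chr8:111690961-111691260 on the minus strand.
Cpa1: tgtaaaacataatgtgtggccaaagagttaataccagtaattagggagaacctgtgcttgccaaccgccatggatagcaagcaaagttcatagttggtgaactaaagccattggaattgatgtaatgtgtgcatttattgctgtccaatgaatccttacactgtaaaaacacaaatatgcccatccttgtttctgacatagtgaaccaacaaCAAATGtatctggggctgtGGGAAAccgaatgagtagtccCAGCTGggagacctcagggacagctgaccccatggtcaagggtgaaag
Ctrb1: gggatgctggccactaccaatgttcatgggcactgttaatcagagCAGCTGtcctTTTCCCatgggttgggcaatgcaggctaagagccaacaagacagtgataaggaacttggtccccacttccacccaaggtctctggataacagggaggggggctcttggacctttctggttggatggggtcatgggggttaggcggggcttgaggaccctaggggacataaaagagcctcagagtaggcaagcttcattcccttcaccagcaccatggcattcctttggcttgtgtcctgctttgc
Such a pair was found in 5 of the 37 acinar-list genes with a window, or 13.5%, against 5.39% of all 27025 genes with a window. A match is a run of letters and not a shown binding site.

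Cpa1 stood at 891, 1309, 1158 and 673 CPM in the acinar RNA-high libraries (CD45 2, CD45 4, gp38-high and gp38-low, in that order throughout). It stood at 50.4, 16.5, 15.02 and 44.9 CPM in the acinar RNA-low libraries (gp38-high TG+, gp38-low TG-, gp38-low TG+ and lymph node FRC TG-, again in that order throughout). The members nearest to the limit of 600 CPM were thus 673 CPM inside and 50.4 CPM outside. A wide gap parted the sides, although the library at 673 CPM lay close to the limit. Outside the 8, Cpa1 had a median of 101 CPM in the Ptprc-rich libraries and 24.2 CPM in the Msln-rich ones, and at most 0.118 CPM in the Ccl21a-rich ones.

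The other acinar enzymes followed Cpa1 closely. Ctrb1 stood at 1811, 2697, 2250 and 1333 CPM in acinar RNA-high libraries, against 88.0, 22.2, 23.5 and 68.8 CPM in acinar RNA-low ones. Pnlip, the pancreatic lipase, stood at 1756, 2409, 2285 and 1234 CPM in high libraries against 78.5, 18.7, 20.8 and 71.7 CPM in low ones, in the same order. On both sides the ranking of libraries was nearly that of Cpa1, and the sides did not overlap. The log2 difference of acinar RNA-high over acinar RNA-low was 5.16 (SE 0.47) for Ctrb1 and 5.17 (SE 0.50) for Pnlip.

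Across the acinar list without Cpa1, 47 genes were in the files and 41 passed the filter on low counts. All 41 were called higher by edgeR's quasi-likelihood test at an adjusted p of 0.05, and none lower. A gene that passes this filter only through the side where it is high has to differ, so the count supports nothing. Over all 14617 genes tested, the same rule called 11.9% higher and 9.87% lower, and these shares are given as background only. The list's median log2 difference was 4.98, against 0.01 for all genes tested.

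The acinar genes covered each enzyme class. Among proteases, Cela1 (an elastase) stood at 684 to 1315 CPM in acinar RNA-high libraries and 13.2 to 44.4 CPM in acinar RNA-low ones, and Cpb1 (carboxypeptidase B) at 487 to 984 CPM in high libraries and 7.59 to 37.0 CPM in low ones. Among lipases and amylases, Cel (bile salt-activated lipase) stood at 1050 to 2041 CPM in high libraries and 17.9 to 70.1 CPM in low ones, and Amy2b (an amylase) at 406 to 773 CPM in high libraries and 5.47 to 32.98 CPM in low ones. Amylase and trypsinogen genes have near-identical copies, so the split of reads within those families is uncertain. Prss3, a trypsinogen, stood at 1.58 to 26.0 CPM in acinar RNA-high libraries and at 0 in all 4 acinar RNA-low ones, which allows up to 0.0477 CPM over the 4 (3 counts, counting error only).

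Accessory secretory genes behaved alike: Reg1 (a regenerating protein) stood at 127 to 289 CPM in acinar RNA-high libraries and 1.34 to 5.12 CPM in acinar RNA-low ones. Gp2, the zymogen granule glycoprotein, stood at 87.8 to 179 CPM in high libraries and 2.23 to 6.67 CPM in low ones. Genes that regulate acinar identity were also higher: Rbpjl, a PTF1 subunit, stood at 2.08 to 3.70 CPM in high libraries and 0.0686 to 0.198 CPM in low ones. Nr5a2, which ducts also express, stood at 59.1 to 77.5 CPM in high libraries against 33.02, 1.79, 11.6 and 12.6 CPM in low ones.

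**Figure D1:**
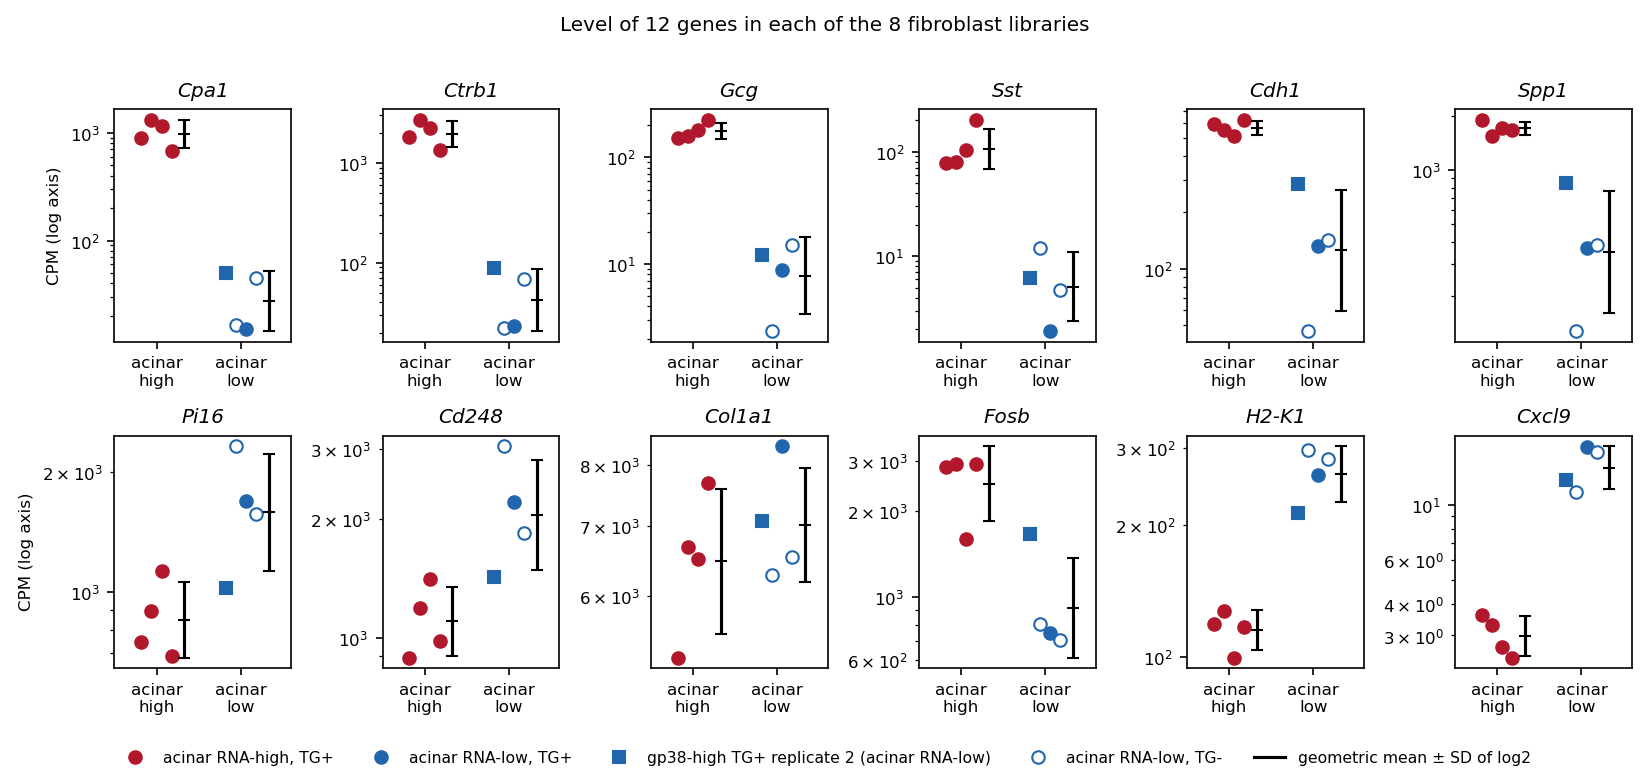
Level of 12 genes in each library, as CPM on a log axis, for the 4 acinar RNA-high (left, red) and 4 acinar RNA-low (right, blue) libraries, with the geometric mean ± SD of log2 values as bars. Ctrb1 stands at 1333 to 2697 CPM in the first and 22.2 to 88.0 CPM in the second, while the Col1a1 points of both sides overlap.

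The make-up of the acinar RNA varied less than its amount. The share of each acinar gene in the summed acinar CPM was taken for 31 genes with a mean of at least 10 CPM in acinar RNA-high libraries, which leaves the amount out. Ctrb1 made 14.1% of the sum on average in acinar RNA-high libraries, 13.0% in acinar RNA-low ones, 14.6% in Ptprc-rich ones and 13.8% in Msln-rich ones. Of the 31 shares, 3 were higher and 4 lower in the acinar RNA-high libraries without overlap. The 3 were Reg1, Prss3 and Reg2. In acinar RNA-low libraries Prss3 had a share of 0 throughout and Reg2 of at most 0.0242%. Both genes were kept by their level on the acinar RNA-high side. Cpa1 made 6.88% to 7.18% in acinar RNA-high libraries and 7.68% to 9.08% in acinar RNA-low ones, and Reg1 1.16% to 1.55% in acinar RNA-high libraries and 0.736% to 0.923% in acinar RNA-low ones. The median coefficient of variation of these shares was 4.42% over the 4 acinar RNA-high libraries and 16.8% over all 8. It was 22.1% over the 20 libraries of the series with at least 10 CPM of Cpa1. The levels themselves varied by 107% over the 8.

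**Figure D2:**
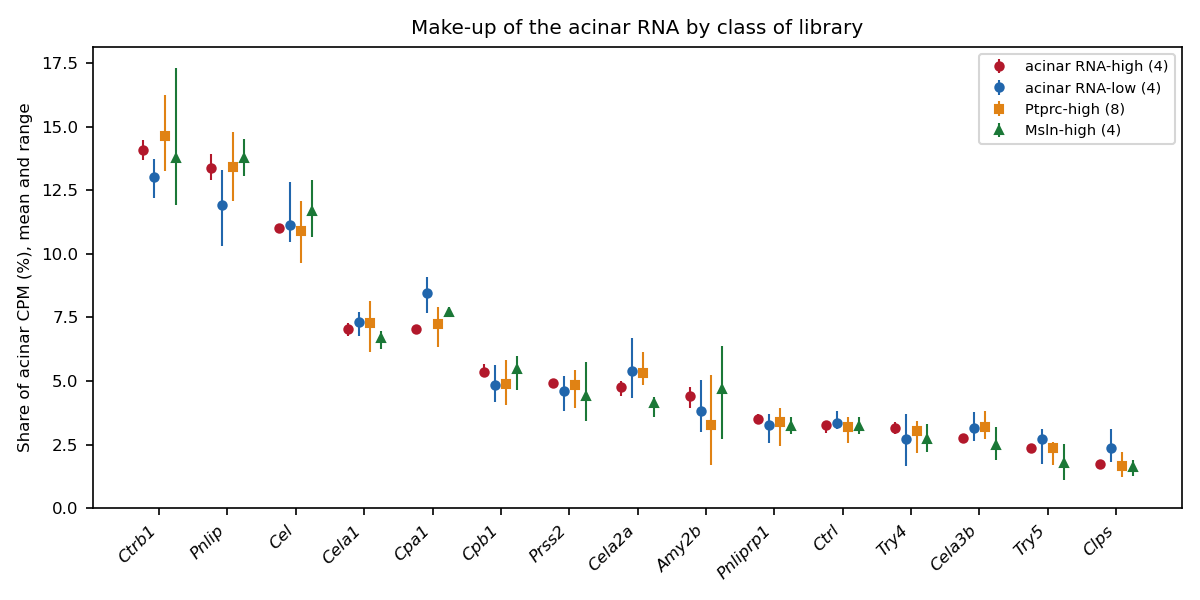
Share of the summed acinar CPM (%, mean with lowest and highest library) for the 15 acinar genes with the highest share, by class of library. Ctrb1 stands at 14.1% in acinar RNA-high and 13.0% in acinar RNA-low libraries.

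Endocrine genes were higher with the acinar genes, and hormones of non-beta cells had the highest levels. Gcg, the glucagon gene of alpha cells, stood at 153, 160, 181 and 225 CPM in acinar RNA-high libraries, against 12.1, 2.34, 8.78 and 14.97 CPM in acinar RNA-low ones. Sst, the somatostatin gene of delta cells, stood at 77.6, 79.8, 105 and 201 CPM in high libraries against 6.23, 12.1, 1.92 and 4.80 CPM in low ones. The sides did not overlap for either gene. Within the acinar RNA-high libraries the gp38-low one was highest in Gcg and Sst and lowest in Cpa1.

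Insulin RNA was low in both sets. Ins2 stood at 9.74, 13.3, 8.94 and 0.647 CPM in acinar RNA-high libraries, against 0.119, 1.45, 0.274 and 0.777 CPM in acinar RNA-low ones. Ins1 stood at 6.92, 10.1, 4.41 and 0.935 CPM in high libraries against 0.119, 0.558, 0.412 and 0.141 CPM in low ones. The gp38-low acinar RNA-high library held the most Gcg and the least Ins2 of its side, and the sides overlapped for Ins2. For comparison, the Ptprc-rich library labelled gp38-high TG- replicate 2 held 82.4 CPM of Ins2.

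Ppy, the pancreatic polypeptide gene, did not follow the acinar order. It stood at 177, 20.4, 70.2 and 142 CPM in acinar RNA-high libraries, against 9.25, 8.71, 26.1 and 10.5 CPM in acinar RNA-low ones. The CD45 replicate with the most Cpa1 had the least Ppy of its side, and the sides overlapped. All 7 hormone genes that passed the filter were called higher, with a median log2 difference of 3.68. Over all genes tested 11.9% were called higher. As with the acinar list, a gene that passes the filter only through its high side has to differ, so the count supports nothing.

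Of 14 genes of secretory granules and beta cell function that passed the filter, 13 were called higher and none lower, with a median of 2.81. Over all genes tested 11.9% were called higher, and the same limit of the filter holds for the counts in this paragraph. Chga (chromogranin A, a granule protein) stood at 9.19 to 20.4 CPM in acinar RNA-high libraries and 1.004 to 4.17 CPM in acinar RNA-low ones. Slc2a2, a glucose transporter of beta cells that liver also uses, stood at 108, 92.1, 104 and 113 CPM in high libraries against 54.5, 4.46, 16.3 and 19.4 CPM in low ones. Scg3 (secretogranin 3), the gene not called, stood at 13.2 to 25.9 CPM in high libraries and 12.3 to 22.5 CPM in low ones. The list's sum was 249 to 396 CPM in high libraries and 39.2 to 118 CPM in low ones. In the Msln-rich libraries it was 33.8 to 230 CPM, beside hormone sums of only 1.32 to 2.39 CPM. The list's sum need not be endocrine RNA in every class. Of 6 endocrine transcription factors that passed the filter, Pdx1, Nkx2-2 and Pax6 were called higher.

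Ductal genes were also higher, by a smaller amount. Cdh1, the epithelial cadherin, stood at 593, 550, 512 and 625 CPM in acinar RNA-high libraries, against 283, 46.3, 132 and 142 CPM in acinar RNA-low ones. Spp1, osteopontin, stood at 1899, 1550, 1705 and 1678 CPM in high libraries against 846, 128, 370 and 385 CPM in low ones. The sides did not overlap, and the gp38-high TG+ library was the highest of the acinar RNA-low ones in both. The log2 difference was 1.77 (SE 0.36) for Cdh1 and 1.84 (SE 0.38) for Spp1.

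All 23 ductal genes passed the filter. In all 23 every acinar RNA-high library lay above every acinar RNA-low one, which was so for 18.9% of all genes tested, and 22 were called higher, with a median log2 difference of 1.81. Examples were Krt8 and Krt18 (keratins of simple epithelium), Epcam (an adhesion molecule), Sox9 (a ductal transcription factor) and Cftr (the chloride channel). Cftr stood at 49.4 to 63.9 CPM in acinar RNA-high libraries and 2.79 to 31.8 CPM in acinar RNA-low ones. Bicc1, an RNA-binding protein, was the one not called, at 695 to 812 CPM in high libraries and 216 to 627 CPM in low ones.

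The summed acinar and ductal lists did not keep one ratio over the series. The summed acinar CPM divided by the summed ductal CPM was 1.76, 2.91, 2.70 and 1.28 in acinar RNA-high libraries, against 0.199, 0.219, 0.102 and 0.299 in acinar RNA-low ones. In the 4 Msln-rich libraries it was 0.0818 to 0.129, with ductal sums of 2223 to 8889 CPM and hormone sums of 1.32 to 2.39 CPM. In the 8 Ptprc-rich libraries it was 14.6 to 155, since their ductal sums were only 22.0 to 62.6 CPM beside acinar sums of 471 to 5834 CPM. Ductal sums were thus 773 CPM or more in every fibroblast-type and Msln-rich library, and low in the Ptprc-rich libraries at every acinar level. The ductal list holds keratins of simple epithelium such as Krt8 and Krt18, so its sum need not be duct RNA in every class. Which cells gave it in the Msln-rich libraries was not tested.

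**Figure D3:**
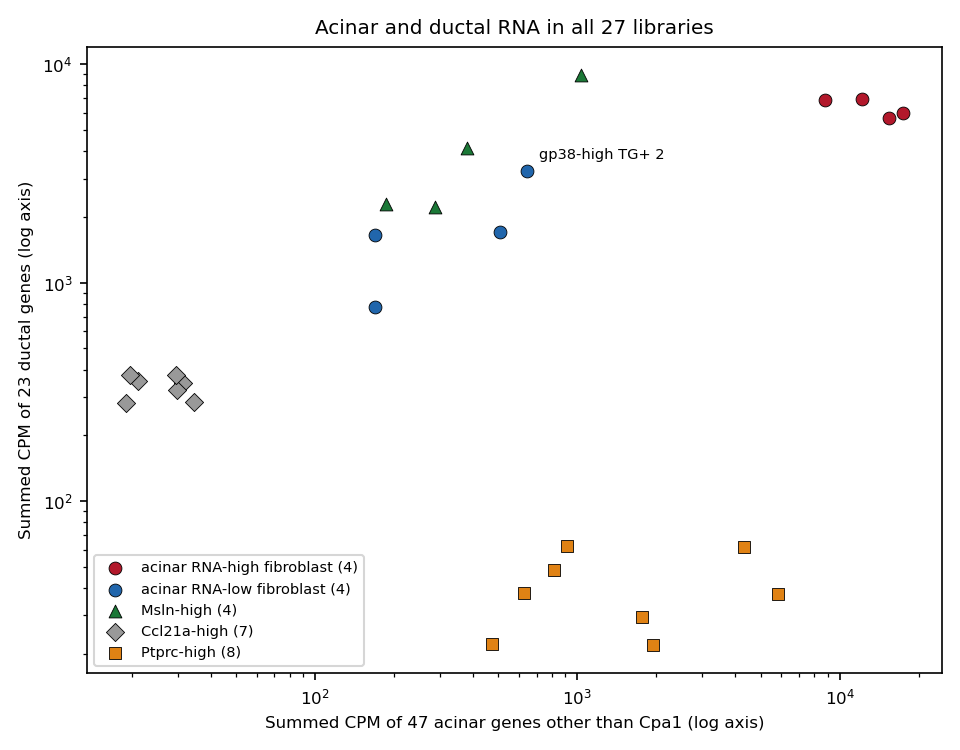
Summed CPM of 47 acinar genes (horizontal) against 23 ductal genes (vertical), both on log axes, with 1 point for each of the 27 libraries. Acinar RNA-high libraries lie at the upper right, with ductal sums of 5699 to 6912 CPM, and the 8 Ptprc-rich libraries lie low, with ductal sums of 22.0 to 62.6 CPM over a wide range of acinar sums.

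The split did not use the other 19 libraries, so relations there could be tested. In the 8 Ptprc-rich libraries the log2 acinar sum had a Pearson r of 0.80 with endocrine granule genes (Spearman rho 0.62), with exact permutation p of 0.0180 and 0.115 (two-sided). After Benjamini-Hochberg adjustment over the 10 relations computed these were 0.180 and 0.378. Without the 2 libraries farthest from the median acinar level r was 0.21, so the relation rested on those. With islet hormones r was 0.69 (rho 0.60; exact permutation p 0.0637 and 0.132, adjusted 0.318 and 0.378) and -0.18 without the same 2. With ductal genes r was 0.20 (rho 0.05; exact permutation p 0.617 and 0.935, adjusted 0.801 and 1). With adventitial genes and collagens r was -0.54 and -0.57 (rho -0.57 and -0.64). In the 7 Ccl21a-rich libraries r ran from -0.10 with ductal genes (rho -0.11) to 0.53 with adventitial genes (rho 0.36). None of the 10 relations passed the adjustment, and a missed threshold does not show that the sums are unrelated.

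Pancreatic epithelial genes made up a small part of each library. The 4 acinar, 3 endocrine and 1 ductal lists together took 1.75% to 2.54% of gene reads in acinar RNA-high libraries and 0.110% to 0.419% in acinar RNA-low ones. Leaving these lists, the mitochondrial genes and Gm26917 out of library sizes gave an adventitial median of -0.90 and an interferon median of -1.14, against -0.87 and -1.11 with them in.

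Adventitial genes were lower in the acinar RNA-high libraries. Pi16, a peptidase inhibitor, stood at 749, 893, 1130 and 689 CPM there, against 1020, 2318, 1693 and 1567 CPM in acinar RNA-low libraries. Cd248, endosialin, stood at 893, 1193, 1408 and 984 CPM in high libraries against 1424, 3052, 2205 and 1845 CPM in low ones. The sides overlapped for Pi16, where the gp38-high TG+ library was the lowest of its side, and just failed to overlap for Cd248. The log2 differences were -1.19 (SE 0.30) for Pi16 and -1.18 (SE 0.29) for Cd248.

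Of 22 adventitial genes, 17 were called lower, against 9.87% of all genes tested, and none higher. The list's median log2 difference was -0.87. In 10 of the 22 the acinar RNA-high side was lower without overlap, against 6.83% of all genes tested. The widest was Ly6c1, a surface antigen, at 129, 159, 185 and 122 CPM in high libraries against 199, 457, 341 and 388 CPM in low ones. Ly6a (stem cell antigen 1) stood at 506 to 764 CPM in acinar RNA-high libraries and 795 to 1520 CPM in acinar RNA-low ones. Tnxb, a tenascin, stood at 3214 to 3921 CPM in high libraries and 4602 to 6404 CPM in low ones. Dpt (dermatopontin) at 2420 to 2796 CPM in high libraries and 1773 to 2604 CPM in low ones, and Fbn1 (fibrillin 1) at 6978 to 12374 CPM in high libraries and 9188 to 16196 CPM in low ones, were not called.

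The adventitial difference depended on which libraries were set side by side. Between the 2 libraries labelled gp38-high TG+ the list's median log2 difference was -0.03, and 10 of 22 genes were above 0, as were 52.7% of all genes tested. Between the 2 labelled gp38-low TG+ it was -1.10, and 1 of 22 was above 0, against 66.8% of all genes tested. Each such pair is 1 library a side and has no replicate check. In the 6 TG+ libraries alone the list's median was -0.74.

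Collagens and other matrix genes differed less. Col1a1, the main chain of type I collagen, stood at 5233, 6682, 6512 and 7700 CPM in acinar RNA-high libraries, against 7078, 6278, 8344 and 6542 CPM in acinar RNA-low ones. The sides overlapped, and the log2 difference was -0.33 (SE 0.17), not called. The median over 16 collagen genes was -0.38. Of the 16, 3 were called lower and none higher, against 9.87% and 11.9% of all genes tested. Those 3 were Col4a1 and Col4a2, the chains of basement membrane collagen, and Col5a3.

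Of 26 other matrix genes 6 were called lower and 1 higher, against 9.87% and 11.9% of all genes tested. Fn1 (fibronectin) stood at 4028 to 6892 CPM in acinar RNA-high libraries and 6952 to 9939 CPM in acinar RNA-low ones, and Loxl1, an elastin cross-linking enzyme, at 701 to 872 CPM in high libraries and 1060 to 1670 CPM in low ones. Fmod (fibromodulin) was the gene called higher, at 52.8 to 91.9 CPM in high libraries and 32.7 to 43.9 CPM in low ones. Dcn (decorin) stood at 4496 to 5643 CPM in high libraries and 4840 to 6377 CPM in low ones and was not called.

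Of 18 genes of general fibroblast identity 12 were called lower and 1 higher, against 9.87% and 11.9% of all genes tested. Pdgfra, the platelet-derived growth factor receptor of fibroblasts, stood at 966 to 1225 CPM in acinar RNA-high libraries and 1237 to 1701 CPM in acinar RNA-low ones. Pdpn, which encodes the gp38 used in the sort, stood at 54.5, 59.7, 67.4 and 51.1 CPM in high libraries against 64.9, 97.3, 90.1 and 96.3 CPM in low ones. Pdpn did not separate the libraries labelled gp38-high, at 67.4 and 64.9 CPM, from those labelled gp38-low, at 51.1, 97.3 and 90.1 CPM. Meox2, a homeobox gene, was the one called higher, at 14.0 to 19.2 CPM in high libraries and 5.80 to 12.1 CPM in low ones.

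Of 26 secreted signalling genes 9 were called lower and 1 higher, against 9.87% and 11.9% of all genes tested. Sfrp2 and Sfrp4, Wnt-binding proteins, stood at 40.8 to 111 CPM and 109 to 179 CPM in acinar RNA-high libraries, and at 115 to 206 CPM and 221 to 304 CPM in acinar RNA-low ones. Igfbp3, which binds insulin-like growth factors, stood at 145 to 192 CPM in high libraries and 252 to 410 CPM in low ones. Grem1, a BMP antagonist, was called higher, at 10.5, 6.36, 10.3 and 10.4 CPM in high libraries against 6.35, 0.893, 1.17 and 2.05 CPM in low ones.

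**Figure D4:**
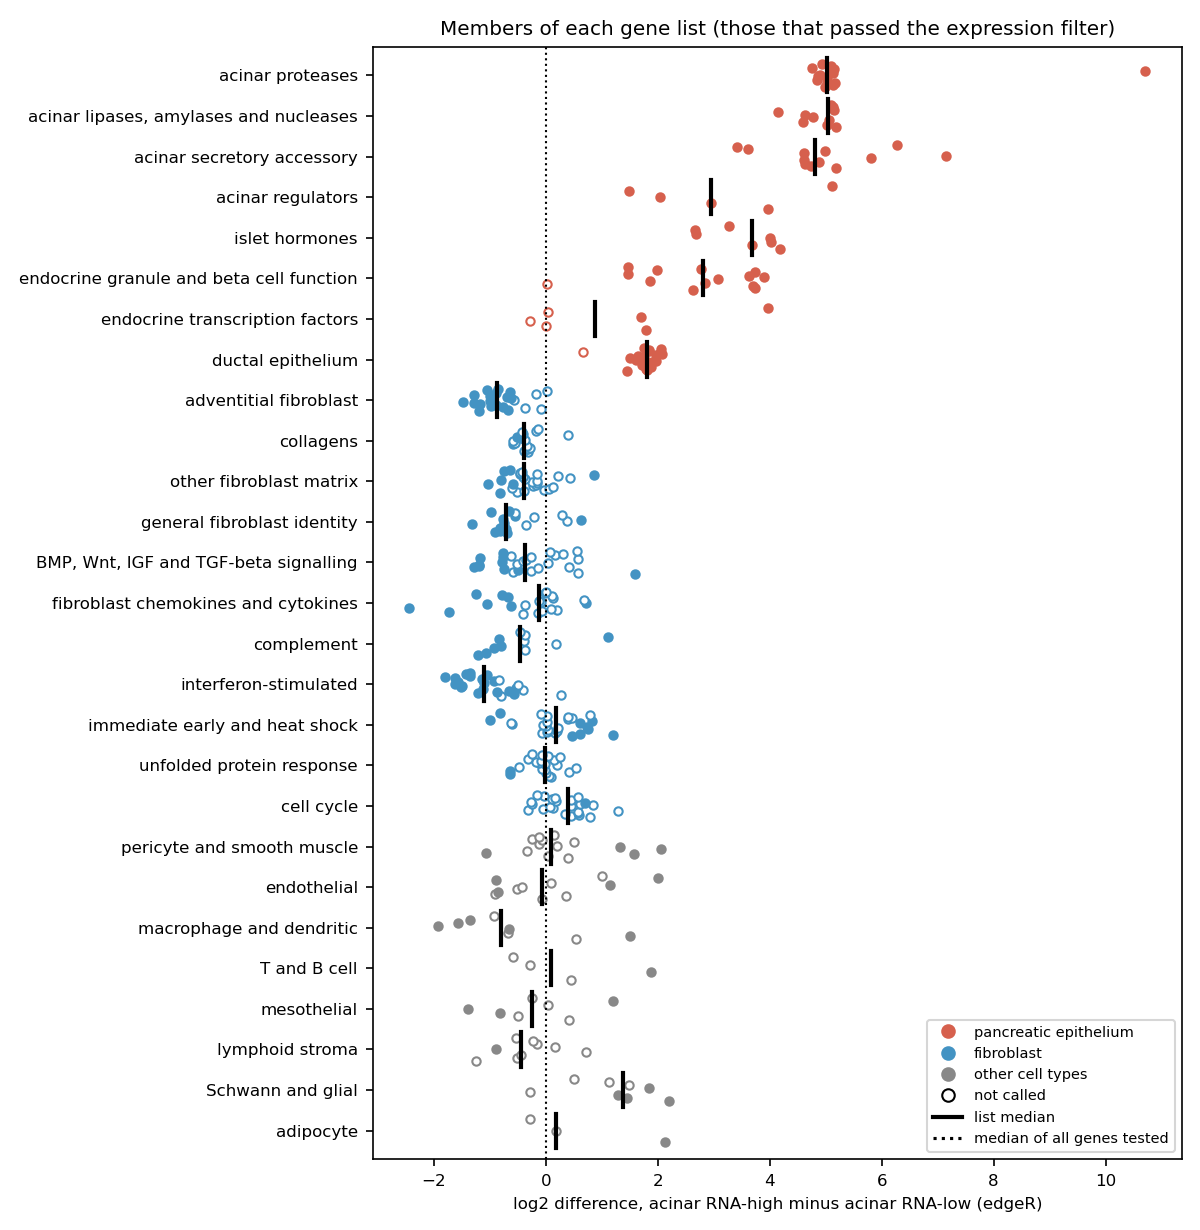
Log2 difference, acinar RNA-high minus acinar RNA-low (edgeR, horizontal), of each gene that passed the low-count filter, by list, with filled points for called genes and a bar at the list median. The pancreatic lists lie to the right, with an acinar median of 4.98 and a ductal median of 1.81, and the adventitial and interferon lists lie to the left, at -0.87 and -1.11. The point farthest to the right is Prss3, whose fitted value depends on the zeros of the acinar RNA-low side.

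Interferon-stimulated and MHC class I genes were lower in the acinar RNA-high libraries. Interferons raise the proteins that cut, transport and present peptides to T cells. H2-K1, an MHC class I heavy chain, stood at 119, 127, 99.6 and 117 CPM in acinar RNA-high libraries, against 213, 296, 260 and 283 CPM in acinar RNA-low ones. H2-D1 stood at 389, 371, 360 and 397 CPM in high libraries against 634, 934, 820 and 906 CPM in low ones, and B2m, their partner chain, at 350 to 412 CPM in high libraries against 579 to 702 CPM in low ones. The sides lay well apart for all 3, and the gp38-high TG+ library was the lowest of the acinar RNA-low ones. The log2 difference was -1.42 (SE 0.19) for H2-K1 and -1.36 (SE 0.20) for H2-D1.

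Of 24 such genes that passed the filter 19 were called lower, against 9.87% of all genes tested, and none higher. Their median was -1.11. In 18 the sides did not overlap, against the 6.83% of all genes tested. Psmb8 and Psmb9, subunits of the immunoproteasome, stood at 23.2 to 28.8 CPM and 6.36 to 8.71 CPM in acinar RNA-high libraries, and at 38.2 to 87.6 CPM and 13.1 to 30.0 CPM in acinar RNA-low ones. Tap1, the peptide transporter, stood at 22.6 to 32.0 CPM in high libraries and 42.7 to 71.2 CPM in low ones. Irf1, an interferon-regulated factor, stood at 136 to 181 CPM in high libraries and 171 to 229 CPM in low ones and was not called, and neither was Ifit2, at 29.6 to 39.6 CPM in high libraries and 17.1 to 37.4 CPM in low ones.

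Within labels the direction was the same. The list's median log2 difference was -0.71 between the 2 gp38-high TG+ libraries. There 1 of 24 genes was above 0, against 52.7% of all genes tested. Between the 2 gp38-low TG+ libraries the median was -0.95, and 2 of 24 were above 0, against 66.8% of all genes tested. Each of these pairs is 1 library a side and has no replicate check. In the 6 TG+ libraries alone the list's median was -0.92.

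Promoter windows are shown for 3 list members whose sides did not overlap and which have a single RefSeq window. That window holds an interferon-stimulated response element (GAAA, any 2 bases and GAAA again, on either strand, in capitals). Among the members that met these conditions, the 3 had the largest fall. They are Igtp and Gbp2, GTPases that act on vacuoles of intracellular microbes, and Oas1a, a sensor of double-stranded RNA. Windows were taken as above from RefSeq on GRCm38.p6, at chr11:58199306-58199605 (plus strand), chr5:120907476-120907775 (minus strand) and chr3:142620413-142620712 (plus strand) for Igtp, Oas1a and Gbp2 in turn.
Igtp: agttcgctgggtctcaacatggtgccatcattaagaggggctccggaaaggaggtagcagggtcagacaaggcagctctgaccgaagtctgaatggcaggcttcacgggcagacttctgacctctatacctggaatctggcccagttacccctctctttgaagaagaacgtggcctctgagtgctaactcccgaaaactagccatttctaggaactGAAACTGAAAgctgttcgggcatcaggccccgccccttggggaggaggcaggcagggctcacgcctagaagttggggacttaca
Oas1a: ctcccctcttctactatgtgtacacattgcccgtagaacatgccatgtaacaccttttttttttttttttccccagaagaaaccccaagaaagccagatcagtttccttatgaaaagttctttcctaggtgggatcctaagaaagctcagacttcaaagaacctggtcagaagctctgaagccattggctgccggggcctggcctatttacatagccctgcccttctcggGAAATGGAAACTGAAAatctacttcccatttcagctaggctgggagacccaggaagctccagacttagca
Gbp2: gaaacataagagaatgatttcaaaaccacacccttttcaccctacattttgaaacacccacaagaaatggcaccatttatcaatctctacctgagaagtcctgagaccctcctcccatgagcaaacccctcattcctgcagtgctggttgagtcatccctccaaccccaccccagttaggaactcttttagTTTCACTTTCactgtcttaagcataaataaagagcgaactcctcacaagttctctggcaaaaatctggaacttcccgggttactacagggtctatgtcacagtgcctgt
The element was found in 13 of the 23 list genes with a window, or 56.5%, against 3.99% of all genes with a window. Igtp stood at 13.0, 10.5, 12.7 and 9.28 CPM in acinar RNA-high libraries, against 23.5, 26.7, 30.9 and 39.9 CPM in acinar RNA-low ones. Gbp2 stood at 50.4, 44.9, 60.5 and 48.9 CPM in high libraries against 104, 114, 121 and 160 CPM in low ones, and Oas1a at 0.863 to 1.76 CPM in high libraries against 2.06 to 4.13 CPM in low ones. No acinar RNA-high library reached the level of an acinar RNA-low one in any of the 3.

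**Figure D5:**
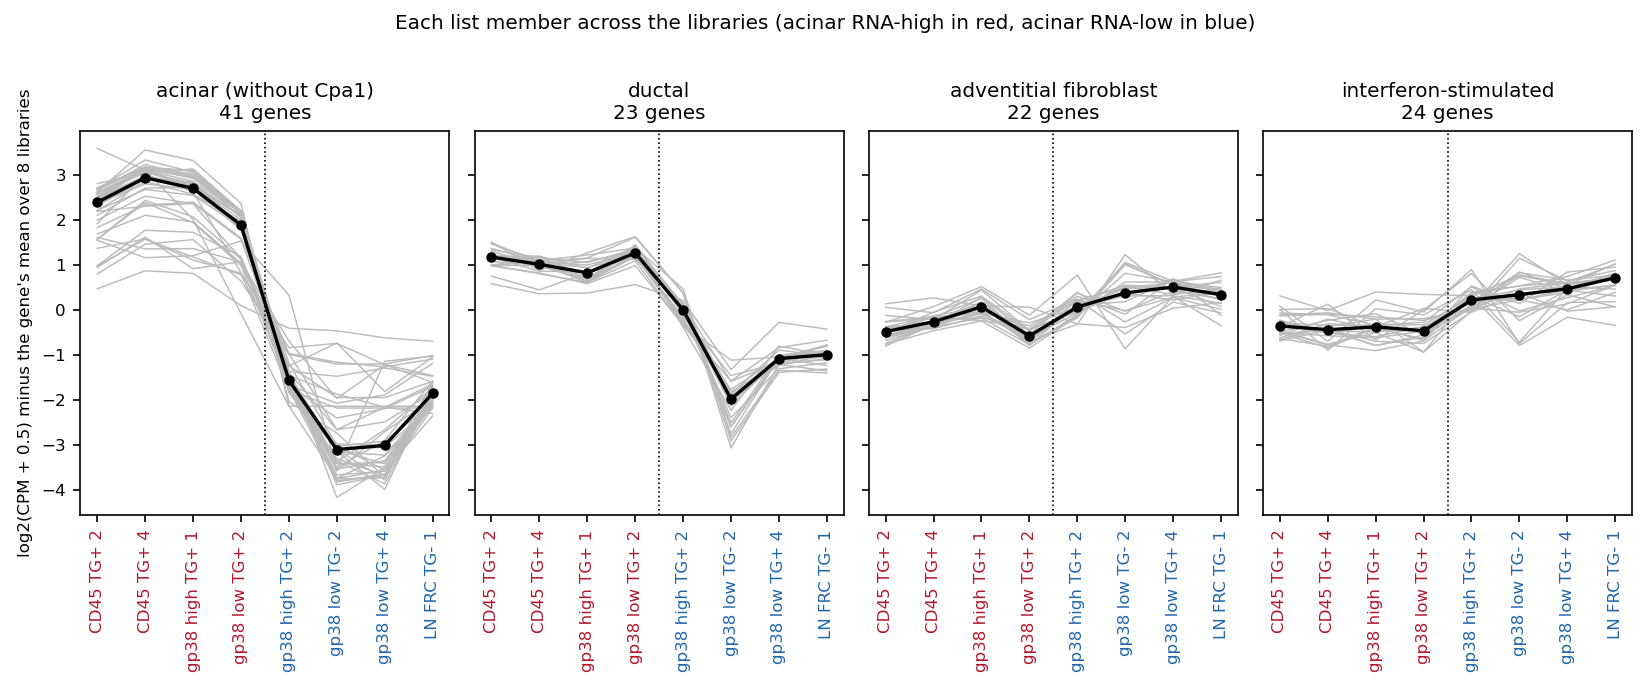
Level of each list member in the 8 libraries as log2(CPM + 0.5) minus the gene's own mean (grey lines; black, median of the list), with acinar RNA-high libraries left of the dotted line. The gp38-high TG+ replicate 2 library takes a middle place in the ductal panel, and the median of the 24 interferon genes is lower on the acinar RNA-high side, where 23 of the 24 had a log2 difference below 0.

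Some chemokine and complement genes were lower in the acinar RNA-high libraries. Cxcl9, a T cell-attracting chemokine induced by interferon-gamma, stood at 3.63, 3.32, 2.71 and 2.45 CPM in acinar RNA-high libraries, against 12.6, 11.3, 16.9 and 16.2 CPM in acinar RNA-low ones. Its log2 difference was -2.44 (SE 0.20), and it was -2.16 and -2.72 between the gp38-high and between the gp38-low TG+ libraries. Cxcl9 had the largest fall among protein-coding genes of at least 3 log2 CPM on average and without overlap. Of 21 chemokine and cytokine genes 7 were called lower and 1 higher, against 9.87% and 11.9% of all genes tested. Ccl11 (eotaxin) and Cxcl12 stood at 181 to 257 CPM and 174 to 226 CPM in acinar RNA-high libraries, and at 156 to 266 CPM and 187 to 253 CPM in acinar RNA-low ones.

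C3, the central complement protein, stood at 5482, 5071, 5899 and 5357 CPM in acinar RNA-high libraries, against 7909, 12988, 10410 and 11355 CPM in acinar RNA-low ones. C4b stood at 348 to 513 CPM in high libraries and 555 to 1019 CPM in low ones. C7, a part of the membrane attack complex, went the other way, at 348, 224, 220 and 350 CPM in high libraries against 129, 75.8, 122 and 133 CPM in low ones. Of 11 complement genes 5 were called lower and C7 alone higher, against 9.87% and 11.9% of all genes tested.

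Outside the pancreatic lists, the 8 largest differences each way were named by size. Among those higher were 2210010C04Rik, at 465 to 974 CPM in acinar RNA-high libraries and 8.71 to 33.6 CPM in acinar RNA-low ones, and Dmbt1, a mucin-like secreted protein, at 444 to 625 CPM in high libraries and 10.5 to 33.5 CPM in low ones. Dab1, Arfgef3, Hook1, Chmp4c, Sorbs2 and Pik3c2g completed the 8, with log2 differences of 3.54, 2.54, 2.38, 2.27, 2.22 and 2.22. In the Ccl21a-rich stromal libraries, Dmbt1 had a median of 0. Of the 225 genes at least 4-fold higher without overlap (log2 of 2 or more), 188 had a median below 1 CPM in those stromal libraries, or 83.6%, against 12.0% of all genes tested. These 225 were taken over all genes, and 59 of them belonged to the pancreatic lists. Genes that passed the low-count filter only through the acinar RNA-high side can be among them, so the share is a description only. The limit of 1 CPM was chosen after the values were seen.

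Among those lower were Cxcl9 of the chemokine list and Psmb9 and Igtp of the interferon list. Ifi47, an interferon-induced GTPase outside the lists, stood at 4.39 to 6.34 CPM in acinar RNA-high libraries and 14.5 to 23.9 CPM in acinar RNA-low ones, and Zbp1, a nucleic acid sensor, at 3.74 to 4.72 CPM in high libraries and 8.42 to 19.4 CPM in low ones. Cyp2e1 (a cytochrome P450) and Plac8 were also among the 8. Plac8 stood at 36.5 to 45.2 CPM in high libraries and 64.1 to 151 CPM in low ones. No gene of the pancreatic lists was among the 999 genes lower without overlap, which were 6.83% of all genes tested. The split was made on Cpa1 and the lists were chosen with earlier results known, so this absence supports nothing.

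Immediate early genes, which dissociation of tissue is known to induce, differed between sides in part. Fosb stood at 2849, 2928, 1592 and 2912 CPM in acinar RNA-high libraries, against 1668, 803, 746 and 708 CPM in acinar RNA-low ones. Jun stood at 2074, 1949, 1526 and 1959 CPM in high libraries against 1497, 825, 1015 and 978 CPM in low ones. The lowest acinar RNA-high library and the highest acinar RNA-low one were the gp38-high pair in both genes. The pair's log2 difference in Fosb was -0.07, so the sides overlapped for Fosb, but they did not for Jun. Of 26 immediate early and heat shock genes 7 were called higher and 2 lower (Socs3 and Myc), against 11.9% and 9.87% of all genes tested. Egr1 stood at 2741 to 3450 CPM in high libraries and 2307 to 3400 CPM in low ones.

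Few genes of the unfolded protein response and cell cycle lists were called. Over all genes tested, 9.87% were called lower and 11.9% higher. Of 21 unfolded protein response genes that passed the filter 2 were called lower and none higher, with a median of -0.01. Hspa5, the endoplasmic reticulum chaperone, stood at 860 to 1287 CPM in acinar RNA-high libraries and 559 to 1108 CPM in acinar RNA-low ones. Of 24 cell cycle genes 1 was called higher and none lower, but 18 lay above 0, with a median of 0.40. Between the 2 gp38-high TG+ libraries 21 of the 24 were above 0, against 52.7% of all genes tested, and between the 2 gp38-low TG+ libraries 23 of the 24 were, against 66.8%. Their medians were 0.44 and 1.02, with no replicate check. Mki67, a proliferation marker, stood at 26.7, 11.9, 51.1 and 46.5 CPM in high libraries against 42.7, 4.80, 9.81 and 12.9 CPM in low ones and was not called.

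Markers of other cells gave a mixed picture, beside 11.9% of all genes tested called higher and 9.87% called lower. Of 8 Schwann and glial genes 4 were called higher and none lower, and their sums were 93.5 to 142 CPM in acinar RNA-high libraries and 42.7 to 66.0 CPM in acinar RNA-low ones. Mbp, a myelin protein gene that other cells also use, led them, at 53.0 to 66.1 CPM in high libraries and 16.4 to 31.9 CPM in low ones. Of 14 pericyte genes 3 were called higher and 1 lower, and the sums were 434 to 577 CPM in high libraries and 322 to 527 CPM in low ones. Rgs5, a pericyte marker, stood at 69.3, 58.3, 68.5 and 74.5 CPM in high libraries against 32.8, 3.57, 9.19 and 12.5 CPM in low ones, but 6 of the 14 lay below 0. The 4 pericyte genes of highest level were not called, with log2 differences of 0.50 for Abcc9, -0.33 for Notch3, 0.21 for Cspg4 and -0.12 for Mylk.

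Of 11 endothelial genes 2 were called higher and 2 lower, against 11.9% and 9.87% of all genes tested. The list's sums were 563 to 607 CPM in acinar RNA-high libraries and 624 to 688 CPM in acinar RNA-low ones. No library outside these had a sum above 519 CPM. Members of the list differed in level: Emcn, Cldn5 and Sox17 were at 0 in all acinar RNA-low libraries and at most 0.598 CPM in acinar RNA-high ones. Eng, Tek and Plvap passed the low-count filter, with log2 differences of -0.89, -0.85 and -0.43. Prox1, which ducts share with lymphatic vessels, was higher at 168 to 217 CPM in high libraries against 8.93 to 109 CPM in low ones. Of 8 macrophage and dendritic genes 1 was called higher and 4 lower, with sums of 47.2 to 60.1 CPM in high libraries and 48.0 to 67.3 CPM in low ones; the 4 were Cd74 and the MHC class II genes H2-Aa, H2-Ab1 and H2-Eb1. H2-Ab1 stood at 2.59 to 4.47 CPM in high libraries and 5.52 to 10.5 CPM in low ones, while Tyrobp was at 0 in acinar RNA-high libraries and at most 0.446 CPM in acinar RNA-low ones.

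Few genes of the remaining lists were called, beside 11.9% of all genes tested called higher and 9.87% called lower. Of 4 T and B cell genes 1 was called higher, with sums of 8.53 to 52.2 CPM in high libraries and 6.71 to 46.6 CPM in low ones, and Cd3d was at most 0.112 CPM in any of the 8. Of 7 mesothelial genes 1 was called higher and 2 lower (sums of 60.1 to 77.0 CPM in high libraries and 76.9 to 100 CPM in low ones), and of 9 lymphoid stroma genes 1 was called lower (205 to 272 CPM in high libraries and 250 to 293 CPM in low ones). Of 3 adipocyte genes 1 was called higher, with sums of 934 to 1514 CPM in high libraries and 757 to 1923 CPM in low ones, nearly all of it Lpl, while Lep and Retn were at 0 in all 8. The part of these cells in the differences above was not tested.

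The 2 sides also differed in how even they were and, for most libraries, in unmapped and ribosomal protein shares. Each pair of acinar RNA-high libraries differed by a mean chi-square of 8.63 to 25.0 per gene, each pair of acinar RNA-low libraries by 28.3 to 174, so no 2 were one library deposited again. Reads in genes numbered 13901227 to 18398337 in acinar RNA-high libraries and 8959919 to 25194443 in acinar RNA-low ones. Unmapped reads took 33.6% to 40.0% in acinar RNA-high libraries, against 39.0%, 67.7%, 42.9% and 52.3% in acinar RNA-low ones. Ribosomal protein genes took 1.47% to 1.52% of gene reads in acinar RNA-high libraries, against 1.38%, 3.28%, 2.25% and 2.73% in acinar RNA-low ones. Log2 differences had a Spearman correlation of 0.24 with exonic length over 14611 genes, which are not independent. It was 0.31 over the 12846 genes outside the pancreatic lists with a median of at least 1 CPM in the Ccl21a-rich libraries. In its unmapped and ribosomal protein shares the gp38-high TG+ replicate 2 library lay with or near the acinar RNA-high ones. Leaving it out gave 7796 genes called, against 3182 with it, an adventitial median of -0.997, a ductal median of 2.13 and an interferon median of -1.25. No direct measure of RNA quality was at hand, and its part in the differences was not tested.

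Label, genotype and side could not be fully parted. Only the gp38-high TG+ and gp38-low TG+ labels had a library on each side, and all TG- libraries were acinar RNA-low. In a fit of those 4 libraries with the label as a term, 676 genes were called, 591 higher and 85 lower, with medians of 4.94 for the acinar, 1.46 for the ductal, -0.69 for the adventitial and -0.96 for the interferon list. In the 5 libraries labelled gp38-high or gp38-low, which leaves out the 3 libraries labelled CD45 or lymph node FRC, 47 genes were called and the same 4 medians were 4.99, 1.80, -0.79 and -1.07. Whether genotype or label moved with the differences beyond this cannot be told apart.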

How the data were processed

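Sorted cells of 8 libraries out of 27 were used, all from NOD mice aged 12 weeks. Total RNA was depleted of ribosomal RNA before library making, per the labels' protocols. The submitters' processing notes name bcl2fastq 2.17, Trim Galore 0.4.3, STAR 2.5.2a and the build mm10, and no source used here names an annotation release. The authors deposited 1 table of raw read counts per gene for each library, in STAR's layout. The first 4 lines, which name no gene, were left out. Unmapped reads took 33.6% to 67.7% of the 8 libraries used and multimapped reads 4.98% to 7.10%. Reads of near-identical gene copies map to several places and drop out of such counts. Column 4, the reverse-strand counts, was used. Of 54446 gene identifiers 54409 matched GENCODE M21 (GRCm38) without their version numbers.

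CPM were counts over the total of column 4. The 8 libraries and their sides were set by Ptprc, Ccl21a, Msln and Cpa1 CPM, and the members and gene lists were chosen with earlier results of these data known. Log2 differences came from edgeR 4.0.16 in R 4.3.3 (TMM factors, filterByExpr, robust quasi-likelihood test, Benjamini-Hochberg adjustment over 14617 genes, 0.05), after a test on simulated data. The smallest adjusted p was 0.000120. DESeq2 1.42.0, limma 3.58.1 and other settings were alternatives, with each library left out in turn. Named genes were up to 4 of highest mean level per list, 12 fixed genes and the 8 largest differences each way outside the pancreatic lists among protein-coding genes of at least 3 average log2 CPM without overlap. Other members named in the text were chosen for their role after their values were seen. A few genes are not reported here by name. A count of 0 allows 3 counts, or 0.119 to 0.335 CPM per library, counting error only. Lists and sides have no p of their own. The 19 other libraries enter only as comparison values and in the 10 correlations. Promoter windows were RefSeq's, 32851 windows of 300 bases.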

Additional observations from a re-analysis of the deposited data

Results flagged for a closer look

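The summed level of the 9 Schwann and glial genes in acinar RNA-low libraries set one library apart. It was 66.0 CPM in gp38-high TG+ replicate 2, and its gap to the nearest of the other 3 took 0.894 of the whole range, above Dixon's 95% critical value for 4 samples. All 4 acinar RNA-high libraries were higher still, at 93.5 to 142 CPM. Of 82 groups of 4 tested in this way 1 was past the limit, and chance alone puts about 1 in 20 past it. The same library was the highest of its side in Cdh1 and Spp1 and the lowest of its side in Pi16 and H2-K1. The cause was not tested.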

How the results depend on the processing

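Of 3182 genes called (1739 higher, 1443 lower), the count was 4322 with DESeq2, which held 3181 of them, and 7298 (3893 and 3405) with limma-voom and quality weights. It was 1518 (1047 and 471) with genotype as a term, 1770 (593 lower) in TG+ libraries, 47 (45 and 2) in gp38-labelled libraries and 676 (591 and 85) with label as a term in labels present on both sides. With Cpa1 as a continuous term 2169 were lower. At an unadjusted p under 0.05 there were 5656.

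Leaving out 1 library gave 1571 to 7796 genes, 1091 to 4063 higher and 472 to 3733 lower. The counts without each were 1653 (CD45 TG+ 2), 2061 (CD45 TG+ 4), 7796 (gp38-high TG+ 2), 1571 (gp38-low TG+ 2), 1806 (gp38-low TG+ 4), 2810 (gp38-low TG- 2) and 1733 (lymph node FRC TG- 1), and without gp38-high TG+ 1 it was 2236 with 851 lower. Replicate numbers did not pair the libraries: deviations from side means correlated by -0.098 to 0.205 in 6 pairs with the same number and -0.207 to 0.235 in 10 others. With the replicate block, 1792 genes were called, 590 of them lower.

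The hormone median was 3.36 with DESeq2, 3.34 with limma-voom, 3.44 without the low-count filter, 3.46 with unstranded counts, 4.18 with genotype as a term and in TG+ libraries (4.1815 and 4.1786), and 3.01 in gp38-labelled libraries, and 3.14 to 3.88 with 1 library left out. The interferon median was -0.90 with genotype, -0.92 in TG+ libraries, -0.96 with label, and -1.25 to -1.04 with 1 library left out. The immediate early median was 0.01 in gp38-labelled libraries (0.0134) and with label (0.0055). The acinar, ductal, adventitial and collagen medians kept their sign in every setting run. Ighm, an immunoglobulin gene, reversed to 1.26 with label, against -0.27. Over named genes, 177 values under other settings and 77 with 1 library left out fell short of the threshold with the same direction, and 1346 and 948 kept their side of it. The causes were not tested. Genes near the floor of 3 counts per library are limited by depth.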

Other observations

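A few genes of the circadian clock, all 6 chosen after their values were seen, are given as values only. They came from a longer set of clock genes that was looked at, and the other members are not given. Dbp, an output transcription factor of the clock, stood at 68.7, 65.1, 38.9 and 57.5 CPM in acinar RNA-high libraries, against 15.3, 14.3, 8.02 and 11.3 CPM in acinar RNA-low ones. Its log2 difference was 2.02 (SE 0.24), and no acinar RNA-low library reached an acinar RNA-high one. Per2 and Nr1d2, repressors within the clock, stood at 25.3 to 47.9 CPM and 76.3 to 97.1 CPM in acinar RNA-high libraries, and at 6.58 to 17.6 CPM and 21.7 to 51.2 CPM in acinar RNA-low ones.

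Nfil3, a repressor that opposes Dbp, stood at 48.4, 64.7, 55.2 and 57.2 CPM in acinar RNA-high libraries, against 81.0, 130, 98.3 and 118 CPM in acinar RNA-low ones, and Arntl, the clock activator, had a log2 difference of -0.44. Per1, a repressor like Per2 that also responds to stress signals, stood at 144 to 244 CPM in acinar RNA-high libraries and 163 to 227 CPM in acinar RNA-low ones and was not called. The labels give no time of tissue collection, so its part in these values was not tested.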
